A study of Mus musculus with 46 samples.

Results

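Macrophages grown from mouse bone marrow (BMDMs) were stimulated with lipid A for 4 hr in the presence of BRDK98 or of BRM014, and the polyadenylated RNA of both groups was compared gene by gene. The comparison takes 4 of the 46 samples of the series: 2 libraries with BRDK98 and 2 with BRM014, chosen by their labels alone. All came from experiment 1, which also holds 2 libraries with ACBI1 at 4 hr and wild type control cells at 0, 1 and 4 hr. All 3 compounds were used in wild type cells, and every compound library had received lipid A, so effects on resting cells and on the response to lipid A cannot be told apart. The labels give no dose and no time of addition for any compound, and leave out whether the replicates of a group are different cultures or animals. Matched dosing is therefore unknown, and the p-values measure only the spread between these libraries, which may be technical.

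Lipid A is the part of bacterial lipopolysaccharide that binds TLR4, a receptor that starts NF-kB, MAP kinase and interferon signalling in macrophages. The SWI/SNF complex is a chromatin remodeller that moves nucleosomes with the ATPases SMARCA4 or SMARCA2, and it is known for opening the slower inflammatory genes. BRM014 inhibits the ATPase activity of both proteins, and ACBI1 is a degrader of both and of PBRM1. BRDK98 is a code name, and nothing further is given of that compound. The comparison asks where transcript levels differ between the 2 compounds at the same time of the same stimulus.

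Values are TPM, a share of all transcripts scaled by exon length. Differences are BRDK98 minus BRM014 on the log2(TPM + 1) scale with the standard error of the fit, and every p is from limma, adjusted over all 11531 tested genes. The added 1 shrinks differences of low genes. A gene is called higher or lower only where the adjusted p was under 0.05 both on TPM as deposited and on median-scaled TPM. Exonic reads recovered from the TPM numbered 13203271 and 12476317 with BRDK98, 8886272 and 10880770 with BRM014, and 8787291 in the control library at 4 hr. The control column of replicate 2 repeated that of replicate 1 exactly, so the 4 hr control counts as 1 library. Of 7 macrophage markers 1 was higher with BRDK98 and 4 were lower, and none was at 0. They summed to 18628 to 18823 TPM with BRDK98 and 26205 to 27542 TPM with BRM014, against 18212 TPM in the control. Lyz2, lysozyme, made up most of that sum, with 16326 and 16481 TPM with BRDK98 and 24946 and 23666 TPM with BRM014. Cd68, which did not pass, had 1186 and 1181 TPM with BRDK98, against 1295 and 1133 TPM with BRM014. The 10 granulocyte markers summed to 6.60 to 6.75 TPM with BRDK98 and 43.9 to 53.02 TPM with BRM014, with 3 of the 5 tested members lower and Ly6g and Elane at 0 in all 4 libraries. The 9 dendritic cell markers summed to 1.75 to 1.83 TPM with BRDK98 and 9.73 to 9.93 TPM with BRM014, and Flt3 and Ccr7 were at 0. Only 1 of the 9 was tested, Xcr1, and it was lower (-2.10). Lymphocyte markers summed to 1.99 to 2.34 TPM with BRDK98 and 2.21 to 2.71 TPM with BRM014. Erythroid and mast cell markers summed to 0.077 to 0.226 TPM and 0.176 to 0.236 TPM. The 9 stromal markers summed to 8.75 to 9.82 TPM with BRDK98 and 1.66 to 1.80 TPM with BRM014, and Col3a1 and Pdgfra were at 0. Kdr alone had 7.98 and 9.18 TPM with BRDK98, against 0.22 and 0.26 TPM with BRM014. The part of these markers in the results was not tested. Fewer cells of a type and less RNA per cell cannot be told apart in such bulk libraries.

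Transcript levels differed widely between the compounds. With BRDK98, 2673 genes were higher than with BRM014 (23.2% of those tested) and 2543 were lower (22.1%), which is 45.2% in either direction. Most of these differences were small: 875 genes (7.59%) were higher and 726 (6.3%) lower by at least 1 on the log2 scale. The median difference over all tested genes was 0.02. Replicates within a group differed with an SD of 0.175 with BRDK98 and 0.204 with BRM014 on the log2 scale. The share of a gene list that was called is read against these shares of all genes.

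**Figure D1:**
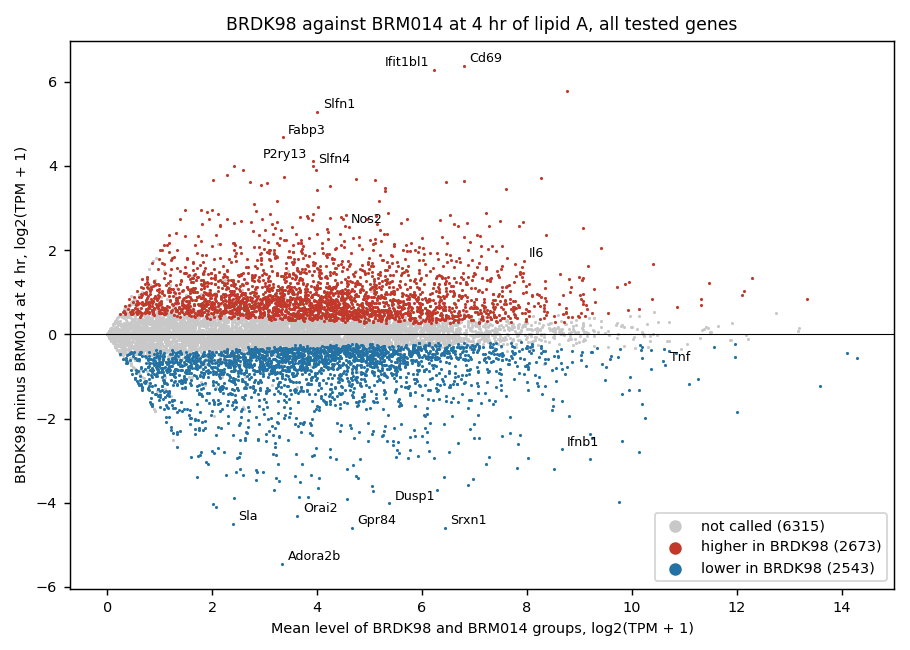
Difference of each tested gene, BRDK98 minus BRM014 (vertical, log2(TPM + 1)), against the mean level of the 2 groups (horizontal, log2(TPM + 1)). Red points are the 2673 genes higher with BRDK98, blue the 2543 lower and grey the rest. Called genes lie at every level, and low genes are confined by the added 1.

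The 12 named genes furthest above BRM014 differed by 3.70 to 6.38. Cd69, an early activation antigen, had 985 and 1044 TPM with BRDK98, against 11.2 and 11.1 TPM with BRM014, a difference of 6.38 ± 0.15 (adjusted p = 2.41e-09). The 4 hr control library had 550 TPM and the ACBI1 libraries 156 and 117 TPM, so BRM014 was the low group. Ifit1bl1, a member of the interferon-induced IFIT family, had 638 and 664 TPM with BRDK98 and 5.42 and 9.92 TPM with BRM014, against 428 TPM in the control. IFIT genes have near-identical copies, so their counts are less certain. Il27, which encodes the IL-27 p28 subunit, had 1100.3 and 1119.7 TPM with BRDK98 and 81.1 and 85.4 TPM with BRM014, against 1022 TPM in the control. Here the BRDK98 libraries lay near the control and the BRM014 libraries far below it.

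Slfn1 (5.28 ± 0.14) and Slfn4 (4.00 ± 0.12), Schlafen genes of the interferon response, and P2ry13 (4.11 ± 0.10), a receptor for ADP, followed. Fabp3, a fatty acid-binding protein, differed by 4.68 ± 0.26 but overlaps another annotated gene, and with counting over both strands its value is less certain. Tlr8, an RNA-sensing receptor, had 95.1 and 95.4 TPM with BRDK98, against 6.61 and 6.23 TPM with BRM014. The others of the 12 were Pou3f1, Rgs14, Phf11a and Hap1, between 3.79 and 3.99. With BRM014, Pou3f1 had 0.22 and 0.46 TPM and Hap1 0.38 and 0.22 TPM. These lie near the value of 3 reads over 2 kb in those libraries (0.253 and 0.208 TPM), so their places in the order are not certain. Of the 12, 10 were raised by lipid A in controls, against 1377 of all 11531 tested genes and 593 of the 2673 higher genes. The control library lay above all 4 compound libraries for 5 of the 12 and between the groups for 7. Over the 2673 higher genes it lay above for 556 and between for 1176. Choosing the 12 for wide gaps favours a control value in between, so the shares cannot be compared. AW112010 lay outside the naming rule because of its clone name and is given after its value was seen: it had 3108 and 3321 TPM with BRDK98 and 54.2 and 61.3 TPM with BRM014.

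The 12 named genes furthest below BRM014 differed by -5.45 to -3.71. Srxn1, the antioxidant enzyme sulfiredoxin, had 14.9 and 18.5 TPM with BRDK98, against 413 and 437 TPM with BRM014, a difference of -4.60 ± 0.12 (adjusted p = 3.02e-09). The control library had 9.58 TPM and the ACBI1 libraries 189 and 158 TPM, so BRM014 was the highest group and ACBI1 was above the control too. Sqstm1, the autophagy receptor p62, had 211 and 219 TPM with BRDK98 and 3519 and 3322 TPM with BRM014, against 242 TPM in the control, and overlaps another gene. With ACBI1 it had 2259 and 2233 TPM. Adora2b, an adenosine receptor, had 0.51 and 0.54 TPM with BRDK98, against 65.1 and 65.9 TPM with BRM014. Its control value of 16.1 TPM lay between them. Dusp1, a MAP kinase phosphatase, had 8.96 and 9.69 TPM with BRDK98 and 174 and 158 TPM with BRM014, against 298 TPM in the control. For Dusp1 it was the BRDK98 libraries that lay far from the control.

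Gpr84 (-4.59 ± 0.12), a receptor for medium-chain fatty acids, overlaps another gene. Sla (-4.50 ± 0.13), an adaptor of antigen receptor signalling, and Orai2 (-4.31 ± 0.09), a calcium channel subunit, were also far lower. With BRDK98, Sla had only 0.08 and 0.13 TPM, under the value of 3 reads over 2 kb in those libraries (0.176 and 0.185 TPM). The size of its difference therefore hangs on the added 1, and its place in the order is not certain. Hilpda, Sh2b2, Klf7, Cenpa and Il33 completed the 12, between -3.91 and -3.71. Of genes given here without a remark on overlap, Il27, Pou3f1, Klf7, Dusp5, Srebf1 and Smarca2 also overlap another annotated gene. The control library lay between the groups for 10 of the 12, and for 846 of all 2543 lower genes. The 12 were chosen for wide gaps, which favour a value in between, so these shares cannot be compared.

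**Figure D2:**
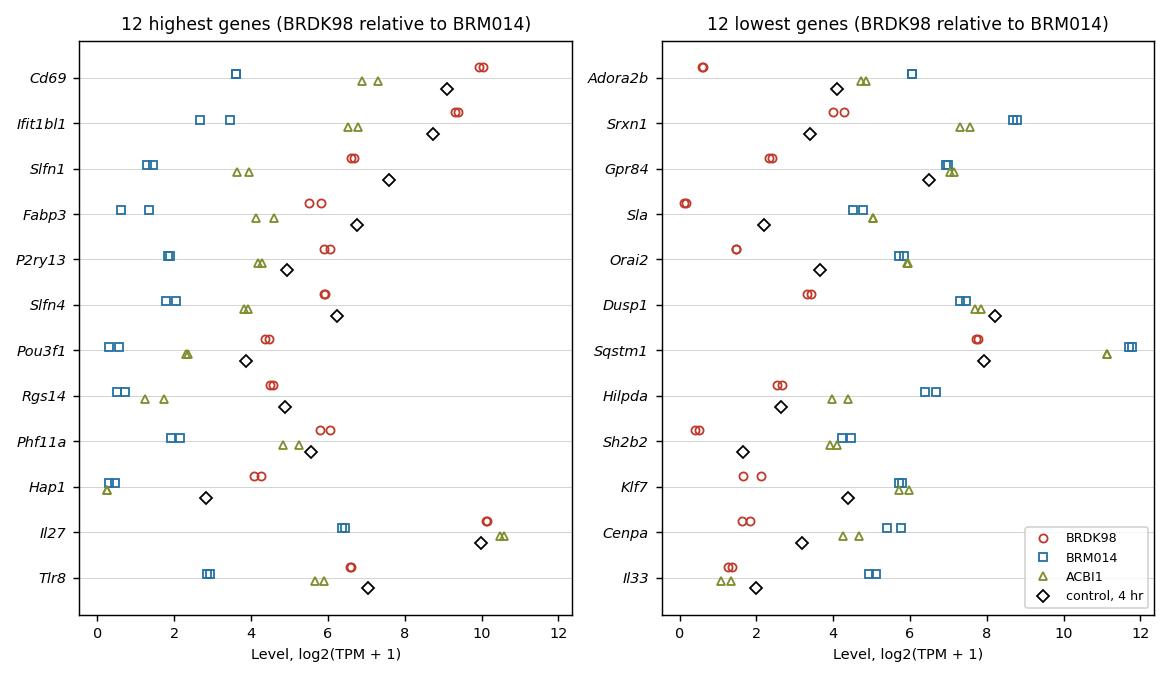
Level of the 12 highest (left panel) and 12 lowest genes (right panel) in each 4 hr library, as log2(TPM + 1). Circles are the 2 BRDK98 libraries, squares the 2 BRM014 libraries, triangles the 2 ACBI1 libraries and diamonds the 1 control library; Cd69 is the top row at left and Adora2b the top row at right.

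NRF2 is the transcription factor that raises antioxidant and glutathione genes under oxidative or electrophile stress. Of 15 tested NRF2 targets, 0 were higher and 12 were lower with BRDK98 (80%, against 22.1% of all genes), with a median of -1.41 against 0.02 over all genes. Besides Srxn1 and Sqstm1, Slc7a11, the cystine transporter, had 3.64 and 3.65 TPM with BRDK98, against 44.5 and 48.4 TPM with BRM014. Hmox1, which breaks down haem, had 90.2 and 94.7 TPM with BRDK98 and 730 and 707 TPM with BRM014, against 107 TPM in the control. Nqo1 (0.15), Pgd (0.00) and Ftl1 (0.10) did not pass. BRDK98 lay near the control for Hmox1 and BRM014 well above it, as did ACBI1 with 1179 and 1091 TPM.

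Cholesterol synthesis genes, which SREBP2 controls, were also mostly lower: 0 of 24 were higher and 19 lower (79.2%), with a median of -1.01. Hmgcs1, the HMG-CoA synthase, had 17.9 and 18.6 TPM with BRDK98, against 154 and 140 TPM with BRM014, and overlaps a predicted gene. Sqle, squalene epoxidase, differed by -2.90 ± 0.09 and Msmo1 by -2.74 ± 0.08. For Hmgcs1 the control library, at 130 TPM, lay near BRM014. Of the 19 called genes, the control lay above all 4 compound libraries for 5, below them for 3 and between them for 11. Among 14 tested LXR targets, which export sterols or make lipid, 2 were higher (Abcg1 1.31 ± 0.16 and Srebf1 1.27 ± 0.13) and 6 lower, among them Abca1 (-1.83 ± 0.09).

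Immediate early genes, which MAP kinases switch on within minutes, were mostly lower: 15 of 27 (55.6%), against 2 higher. Ier3 (-3.69 ± 0.13), Ier2 (-3.28 ± 0.21) and Dusp5 (-3.11 ± 0.17) were lower. The 2 higher were Jun and Atf3, and 1 was higher without BRDK98 replicate 2. Jun, an AP-1 subunit, had 117 and 118 TPM with BRDK98 and 40.3 and 41.8 TPM with BRM014.

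Primary NF-kB genes, which need no new protein, split as 8 higher and 19 lower of 31 (25.8% and 61.3%). Secondary inflammatory genes split as 12 higher and 6 lower of 28 (42.9% and 21.4%). Il6 had 458 and 434 TPM with BRDK98, against 124 and 141 TPM with BRM014. Its control value was 410 TPM, close to BRDK98. Il12b, the IL-12 p40 subunit, had 38.2 and 41.9 TPM with BRDK98 and 9.13 and 8.85 TPM with BRM014, against 114 TPM in the control. Nos2, the inducible nitric oxide synthase, had 51.3 and 59.3 TPM with BRDK98 and 7.75 and 9.31 TPM with BRM014, against 501 TPM in the control. Both compound groups lay below the control for Il12b and Nos2, BRM014 further.

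Tnf went the other way, with 1203 and 1245 TPM under BRDK98 and 1918 and 2146 TPM under BRM014 (-0.73 ± 0.12), against 968 TPM in the control. Il1b had 76.1 and 81.9 TPM with BRDK98 and 415 and 436 TPM with BRM014, against 1120.1 TPM in the control. Among primary genes, the chemokine gene Ccl7 (3.46 ± 0.18), Ptgs2 (0.90 ± 0.10), which encodes the prostaglandin synthase COX-2, and the chemokine Ccl5 of the secondary list (0.84 ± 0.09) were higher. Cd40 (-2.54 ± 0.11) and Bcl3 (-2.95 ± 0.19, overlapping another gene) were lower. Il10 (-0.11 ± 0.17, adjusted p = 0.626) and Cxcl10 (0.15 ± 0.17, adjusted p = 0.503) did not pass. Nlrp3, the inflammasome sensor, had 32.2 and 34.1 TPM with BRDK98 and 391 and 421 TPM with BRM014 (-3.58 ± 0.07).

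Ifnb1, the interferon beta gene, was lower, with 157 and 155 TPM with BRDK98, against 1005 and 1073 TPM with BRM014 (-2.73 ± 0.24), and 10.5 TPM in the control. Both compound groups were thus above the control. Of 15 tested interferons and regulators 4 were higher and 9 lower. Of 40 interferon response genes, 12 were higher (30%) and 6 lower (15%), not far from the shares of all genes, and 22 did not pass. Cxcl9, a T cell chemokine, had 389 and 380 TPM with BRDK98, against 23.3 and 38.2 TPM with BRM014 (3.64 ± 0.33), and Isg20 (2.58 ± 0.13) and Iigp1 (2.06 ± 0.36) were higher too. Ifit3b was lower (-1.95 ± 0.24). Limited to the 4 libraries compared, and called on a single fit, the counts became 22 and 10 of the 40. With all libraries and TPM as deposited alone they were 14 and 6. Over all tested genes the counts were 3305 higher and 2905 lower with the 4 libraries, against 2965 and 2544. In the fit of 4 libraries the higher share of the list thus lay well above that of all genes, and the lower share near it.

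Interferon-stimulated genes are switched on by ISGF3, which binds the interferon-stimulated response element. Promoters of 300 bases were matched to 8852 of the 11531 tested genes in RefSeq (GRCm38.p6), and 5 motifs were searched on both strands. The core of that element, 2 GAAA blocks with any 2 bases between them, stood in 3.536% of all promoters, 3.875% of those higher with BRDK98 and 3.443% of those lower. It stood in 17 of 30 promoters of the interferon list: 2 of the 9 genes called higher and 4 of the 5 called lower. The nearest listed start was taken with no limit on distance. For Ifi47, called higher and without a match, that start lay 10430 bases from the transcript start. Rsad2, the antiviral enzyme viperin, and Isg15, a ubiquitin-like modifier, lie on opposite sides and both hold it. Both were chosen after the matches were seen, in place of Hmgcs1 and Cxcl9, which held no match to the motif of their list. Rsad2 had 14068 and 13729 TPM with BRDK98, against 7502 and 7993 TPM with BRM014 (0.84 ± 0.19). Isg15 had 2099 and 2245 TPM with BRDK98, against 7434 and 8061 TPM with BRM014 (-1.83 ± 0.13). The capitals mark the matches, 1 in Rsad2 on the other strand and 3 that overlap in Isg15. Srxn1 is shown because it is the lowest of the NRF2 targets, and its capitals mark the antioxidant element core on the other strand. That match begins 28 bases past the transcript start. A match to TGANTCAGC, a longer element given below, stands upstream of it and is not marked. Positions are GRCm38.p6: Srxn1 chr2:152105274-152105573, plus strand; Rsad2 chr12:26456403-26456702, minus strand; Isg15 chr4:156200769-156201068, minus strand.
Srxn1: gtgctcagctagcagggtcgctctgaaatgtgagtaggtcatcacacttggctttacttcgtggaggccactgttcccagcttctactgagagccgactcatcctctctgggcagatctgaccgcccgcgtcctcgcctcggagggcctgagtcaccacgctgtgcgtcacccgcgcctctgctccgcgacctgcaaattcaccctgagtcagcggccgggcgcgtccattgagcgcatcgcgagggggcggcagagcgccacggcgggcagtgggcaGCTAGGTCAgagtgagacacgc
Rsad2: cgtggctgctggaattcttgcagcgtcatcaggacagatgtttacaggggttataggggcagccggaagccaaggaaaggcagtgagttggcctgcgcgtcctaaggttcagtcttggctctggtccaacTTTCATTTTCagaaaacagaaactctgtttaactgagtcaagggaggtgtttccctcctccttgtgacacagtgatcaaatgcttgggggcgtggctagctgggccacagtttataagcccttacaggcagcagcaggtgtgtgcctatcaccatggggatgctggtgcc
Isg15: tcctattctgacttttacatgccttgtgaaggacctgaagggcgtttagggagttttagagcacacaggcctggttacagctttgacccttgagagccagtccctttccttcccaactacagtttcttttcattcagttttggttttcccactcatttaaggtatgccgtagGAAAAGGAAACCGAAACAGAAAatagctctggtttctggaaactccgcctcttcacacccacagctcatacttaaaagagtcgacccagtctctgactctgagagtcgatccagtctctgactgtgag

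The other motifs gave little to set the called genes apart. TGACNNNGC, the antioxidant element core, stood in 15.08% of all promoters, 14.89% of those higher and 15.87% of those lower, and in 5 of 12 in the NRF2 list. TGANTCAGC, the longer NRF2 and small MAF element, stood in 1.085% of all promoters and in 3 of those 12. The same letters stood in 4 of 30 promoters of the interferon list. In the cholesterol and primary NF-kB lists they stood in 0 of 17 and 0 of 23. It was added after the matches of the other 4 motifs and the Srxn1 sequence had been seen. GGGNNTTCC, an NF-kB site, stood in 7.693% of all promoters and in 5 of 23 of the primary NF-kB list. A sterol regulatory element, ATCAC and CCAC with any base between them, stood in 0.1243% of all promoters and in 0 of 17 of the cholesterol list. A match is a description of letters, and no match says only that they are not in this window.

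**Figure D3:**
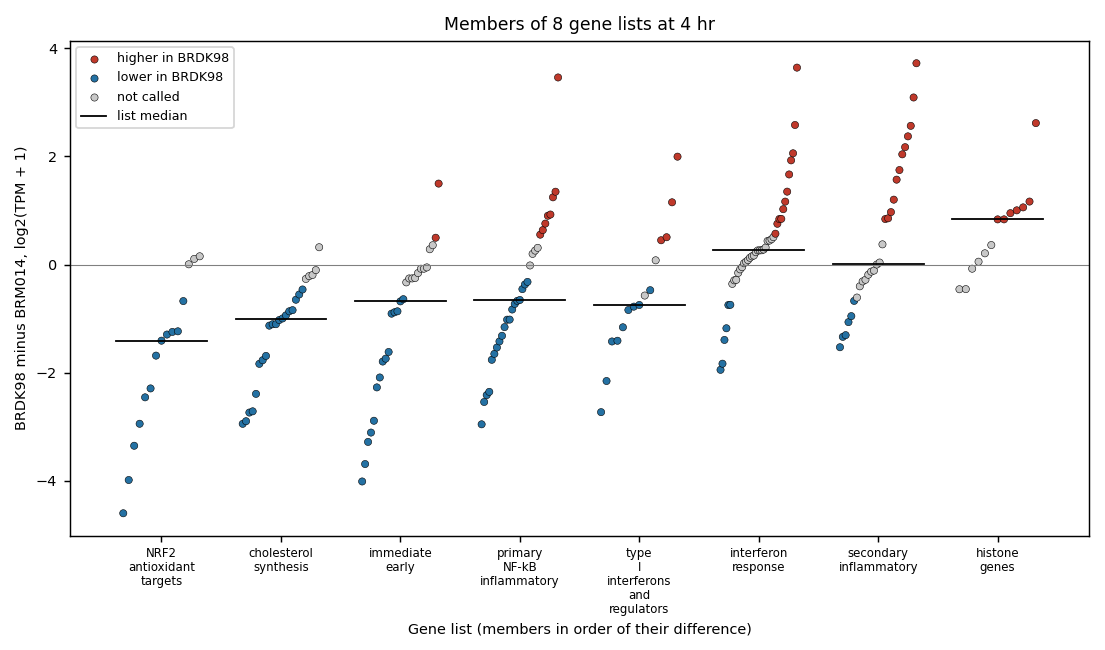
Difference of each tested member of 8 gene lists, BRDK98 minus BRM014 (vertical, log2(TPM + 1)), with members in order of their difference. Red points are higher, blue lower and grey not called, and black bars are list medians; the NRF2 and cholesterol lists hold no red point.

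Of 24 macrophage transcription regulators 5 were higher (20.8%) and 11 lower (45.8%). Runx1 (-2.38 ± 0.09), a haematopoietic factor, Id2 (-2.91 ± 0.15), an inhibitor of bHLH factors, and Bhlhe40 (-3.09 ± 0.21) were lower, and both Runx1 and Bhlhe40 overlap another gene. Among 27 macrophage identity genes 5 were higher (18.5%) and 8 lower (29.6%), near the shares of all genes, with a median of -0.07. Mertk and Axl, receptors for the uptake of dead cells, were higher: Mertk had 112 and 111 TPM with BRDK98 and 30.0 and 34.3 TPM with BRM014, against 147 TPM in the control. The 8 lower counted 5 without BRDK98 replicate 2 or without BRM014 replicate 2. Among 16 MHC class II and co-stimulation genes 3 were higher (Cd69, Cd86 and Cd80) and 9 lower, among them Tnfsf4 (-2.58 ± 0.14) and Icosl (-2.42 ± 0.09).

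Receptors for chemokines, nucleotides and lipids were called in both directions, 9 and 9 of 22. P2ry6 (-3.61 ± 0.08), a UDP receptor, and S1pr1 (-3.41 ± 0.11), a sphingosine phosphate receptor, were lower, while P2ry13 and Fpr2, a formyl peptide receptor (3.09 ± 0.28), were higher. Fpr2 overlaps Fpr3. Of 15 prostaglandin and leukotriene genes 1 was higher, Ptgs2, and 9 lower, with Ptger4, a prostaglandin E2 receptor, at 7.92 and 7.54 TPM with BRDK98 against 29.5 and 29.4 TPM with BRM014. With a pseudocount of 0.1, fitted on TPM as deposited alone, Ptgs2 no longer passed. It had 137 and 157 TPM with BRDK98 and 77.1 and 78.7 TPM with BRM014. The resting libraries, which share the fit, had 0 and 0.18 TPM, and the cause of the lost call was not tested. Of 16 matrix proteases and inhibitors 2 were higher and 7 lower. Mmp13 (2.17 ± 0.14), a collagenase, was higher, with 110 and 121 TPM with BRDK98, 21.7 and 28.4 TPM with BRM014 and 3394 TPM in the control. Both compound groups lay far below the control.

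Of 13 histone genes 7 were higher (53.8%, against 23.2% of all genes) and 0 lower, with 1 lower at a pseudocount of 0.1. Hist1h1c, a linker histone, had 19.2 and 22.4 TPM with BRDK98 and 3.04 and 2.12 TPM with BRM014. Histone genes have near-identical copies, so these counts are less certain. Cell cycle genes did not share a direction. Of 24 DNA replication genes 3 were higher and 6 lower: Pcna, the polymerase clamp, had 93.0 and 88.6 TPM with BRDK98 and 590 and 528 TPM with BRM014, while Mcm6, a helicase subunit, had 63.3 and 64.3 TPM with BRDK98 and 27.4 and 29.6 TPM with BRM014. Of 21 mitosis genes 3 were higher and 4 lower. Ncapg2, a condensin subunit, had 51.7 and 51.1 TPM with BRDK98 and 3.49 and 4.22 TPM with BRM014.

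**Figure D4:**
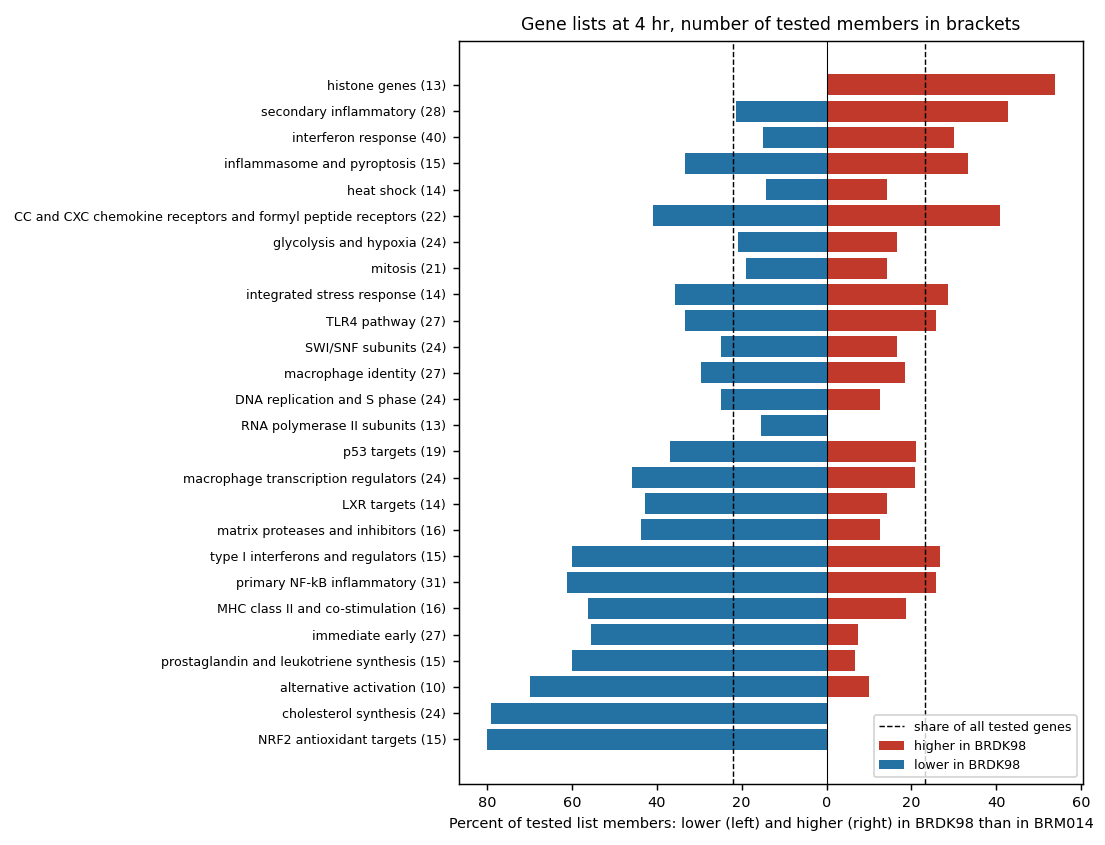
Percent of tested members of each list with at least 10 tested that were higher (red, right) or lower (blue, left) with BRDK98 than with BRM014. Dashed lines are the shares of all tested genes, 23.2% higher and 22.1% lower; the NRF2 list reaches 80% lower.

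Of the SWI/SNF genes, Smarca4 had 79.6 and 78.8 TPM with BRDK98, against 66.5 and 69.5 TPM with BRM014 (0.22 ± 0.09, adjusted p = 0.0751). Its 95% interval ran from 0.01 to 0.42. Smarca2 did not pass (-0.01 ± 0.14, interval -0.33 to 0.30, adjusted p = 0.955). Arid1a, a subunit of the BAF form, had 23.9 and 22.5 TPM with BRDK98 and 38.7 and 35.4 TPM with BRM014 (-0.65 ± 0.09). Pbrm1 was lower by a small margin (-0.44 ± 0.11), overlaps Gnl3 and did not pass without BRDK98 replicate 2 or without BRM014 replicate 2. In all, 4 of 24 SWI/SNF genes were higher and 6 lower, shares near those of all genes. Leaving out any 1 of the 4 libraries gave 2 to 3 higher and 3 lower. Polr2g, an RNA polymerase II subunit, had 70.5 and 77.0 TPM with BRDK98, against 651 and 704 TPM with BRM014, while 11 of the 13 subunits did not pass.

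Genes raised by lipid A in controls, by at least 1 on the log2 scale at 4 hr with an adjusted p under 0.05 in limma, numbered 1377. Of them 593 were higher (43.1%) and 342 lower (24.8%) with BRDK98. Of the 2673 genes higher over all classes, the control library lay above all 4 compound libraries for 556, below them for 941 and between them for 1176. For the 2543 lower genes it lay above for 341, below for 1356 and between for 846. Over all 11531 tested genes it lay above for 1775, below for 6527 and between for 3229. Among the 6315 genes not called it lay below for 4230, so lying below was no mark of the called genes. The control and both compound groups are in 1 fit, and the lipid A class rests on that same control library.

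The same compounds were measured in experiment 4 at 20 and 60 min of lipid A, in other libraries with their own table, so levels are set side by side only. At 20 min 44 of 11549 tested genes were higher (0.381%) and 65 lower (0.563%) with BRDK98, 0.944% in either direction. Leaving out any 1 of those 4 libraries gave 13 to 18 higher and 33 to 44 lower. At 60 min 1667 were higher (14.4%) and 1423 lower (12.3%), 26.8% in either direction. They were 338 and 229 with only the 4 libraries compared in the fit, and 800 and 671 with no filter on low values. At 60 min the BRDK98 replicates differed with an SD of 0.140 and the BRM014 replicates with an SD of 0.309 on the log2 scale. The 60 min counts were 1069 and 866 without BRDK98 replicate 1, 935 and 807 without BRDK98 replicate 2, and 3246 and 2182 without BRM014 replicate 2.

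Of 10865 genes tested in both experiments, 2544 (23.4%) were higher and 2415 (22.2%) lower at 4 hr, the shares against which the overlaps are read. At 60 min 1605 were higher, and of these 285 were also higher and 731 (45.5%) lower at 4 hr. Of 1335 lower at 60 min, 211 were also lower and 399 (29.9%) higher at 4 hr. The 63 genes lower at 20 min included 41 that were lower at 4 hr and 6 that were higher. Of the 12 lowest genes at 4 hr, 10 of the 11 tested at 60 min were higher with BRDK98 then. Srxn1 had 389 and 400 TPM with BRDK98 at 60 min, against 104 and 122 TPM with BRM014. Sqstm1 had 3204 and 3016 TPM with BRDK98 and 1009 and 881 TPM with BRM014. Of the 12 highest, Cd69, Fabp3, Pou3f1 and Il27 were lower at 60 min and the other 8 did not pass.

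Cd69 had 44.2 and 47.8 TPM with BRDK98 at 60 min, against 246 and 293 TPM with BRM014. Nlrp3 had 496 and 475 TPM with BRDK98 and 72.8 and 63.3 TPM with BRM014. Ifnb1 (-0.67 ± 0.15), Tnf (-1.22 ± 0.08), Il1b (-1.33 ± 0.13) and Hmox1 (-1.54 ± 0.09) were lower with BRDK98 at 60 min as at 4 hr. In experiment 1, the header of the deposited table gives another name than BRDK98 for the 2 libraries of that compound. Whether the labels bear on the opposite directions was not tested, and time, experiment and library cannot be told apart.

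**Figure D5:**
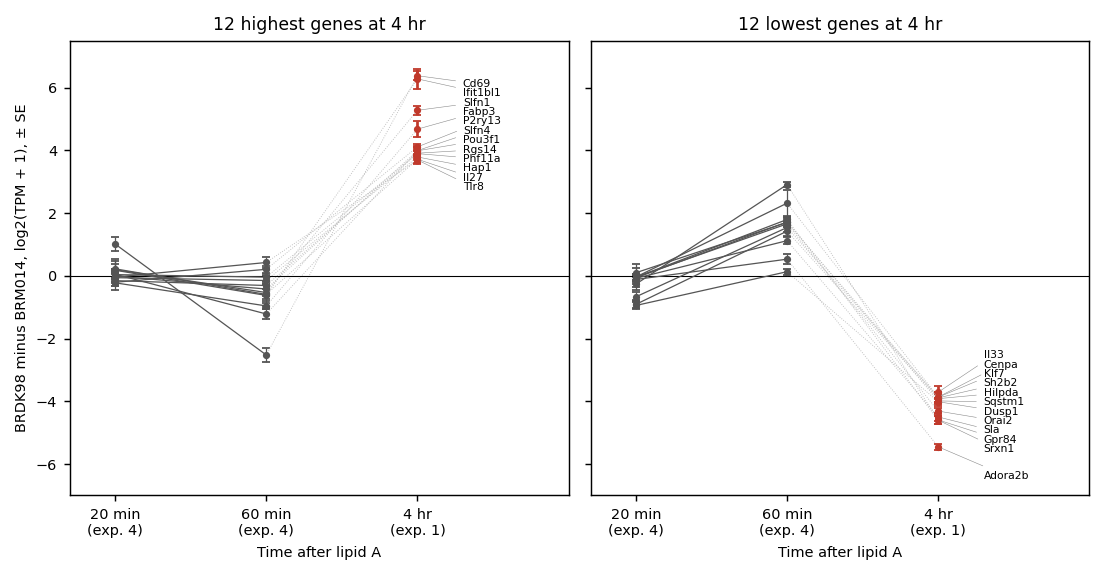
Difference, BRDK98 minus BRM014 (log2(TPM + 1), with SE bars), of the 12 highest (left) and 12 lowest genes (right) at 4 hr, with the same genes at 20 and 60 min. Grey points are experiment 4 and red points experiment 1, and dotted lines join separate experiments; Il33 was tested at 4 hr alone, and Srxn1 was 1.80 at 60 min and -4.60 at 4 hr.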

How the data were processed

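RNA was measured in mouse bone marrow-derived macrophages; 4 libraries are compared here, with 11 libraries of experiment 1 and 18 of experiment 4 in the fits. The authors' deposited tables hold TPM, counted over exons on both strands with HOMER per the file headers, and the submitters' processing notes name STAR 2.5.3a and the mm10 build. In experiment 1, 1 column matched to no sample because it repeats another, and it was left out. Reads recovered from TPM and exon length were whole within 0.1 read for 100% of low values, and numbered 7015041 to 21284161 in experiment 1 and 9869536 to 27527096 in experiment 4. The floor, taken as 3 reads over 2 kb of exon, is 0.0654 to 0.298 TPM and covers counting error only.

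Genes with at least 1 TPM in 2 libraries were tested (11531 of 24537 and 11549 of 25124) with limma 3.58.1 (R 4.3.3) after a log2(TPM + 1) step, using a mean-variance trend and robust moderation, with 5 and 9 residual degrees of freedom, and Benjamini-Hochberg adjustment at 0.05. A call needed the same result on median-ratio scaled TPM. Simulated data over 11531 genes took normal noise with the spread of the fit itself. Changes were placed only in genes averaging above 5 TPM. There the 4 hr comparison found 98 of 100 simulated 2-fold changes and 99 of 100 simulated 4-fold changes, with 14 unchanged genes called. These rates do not cover lower genes. Genes were named by rule: SWI/SNF targets, 10 inflammatory genes, the 12 called genes at either end of the differences, of at least 10 TPM without overlap between groups, and up to 4 called members of each of 31 lists of at least 5 TPM. The comparison and the lists were chosen with earlier results of these data known. Overlapping genes were found in the GENCODE annotation. Each result was recomputed with a pseudocount of 0.1, no filter, no moderation, a replicate block, only the 4 libraries, voom on recovered reads, a minimum difference of 1 and leaving out each library. Only the minimum difference and the left-out libraries used both scalings. The others called genes on a single fit, to be read against 2965 higher and 2544 lower on TPM as deposited alone at 4 hr.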

Additional observations from a re-analysis of the deposited data

Results flagged for a closer look

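Within experiment 4 the BRDK98 minus BRM014 difference itself changed between 20 and 60 min for 2072 of 11549 tested genes (17.9%) in limma with Benjamini-Hochberg adjustment, with 2 libraries in each group. This count rests on TPM as deposited alone, without the second scaling that calls elsewhere needed, and no alternative was tried for it. The values that follow, given without standard errors, are the log2 difference at 60 min less that at 20 min.

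Among named genes the difference moved down for Tnf (-1.94), Il12b (-0.70), Ifnb1 (-0.65), Ptgs2 (-2.44), Ccl5 (-1.12), Il1b (-0.84), Cd69 (-3.54), Fabp3 (-0.74), Pou3f1 (-1.27) and Il27 (-0.82). It moved up for Il10 (1.61), Srxn1 (1.84), Gpr84 (3.17), Sla (1.20), Orai2 (1.70), Dusp1 (1.08), Sqstm1 (1.78), Hilpda (2.33), Sh2b2 (1.61), Klf7 (2.36) and Cenpa (2.21). Of the 12 lowest genes at 4 hr, 10 moved up here. The change from 60 min to 4 hr was not tested, since the tables were normalized separately.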

How the results depend on the processing

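Of the 131 named genes, 0 changed direction under any alternative tried, 28 gene results lost their call and 1, Smarca4 with only the 4 libraries compared, gained it. A minimum absolute log2 difference of 1 ended 18 of these calls, and left 875 genes higher and 726 lower at 4 hr, 341 and 211 at 60 min, and 9 and 24 at 20 min. Without the filter, the counts were 800 and 671 at 60 min and 23 and 32 at 20 min. With only the 4 libraries compared they were 338 and 229 at 60 min and 115 and 113 at 20 min. With voom on recovered reads 68 genes were higher at 20 min. The cause of these moves was not tested, beyond the smaller number of libraries or the added size limit that define them. Leaving out each library in turn gave 2051 to 2203 higher and 1899 to 2067 lower at 4 hr, 935 to 3246 higher and 807 to 2182 lower at 60 min, and 13 to 18 higher and 33 to 44 lower at 20 min, so the early counts rest on single libraries far more than those at 4 hr. With 1 library left in a group, that library is assumed to vary like the other groups. The replicate block, called on TPM as deposited alone, gave 3041 higher and 2657 lower at 4 hr. On that scaling the fit without the block gave 2965 and 2544. Same-numbered libraries deviated with a correlation of -0.04, and with fewer than 3 pairs the numbers are shared names only. List counts at 4 hr stayed within 1.5 times of the reported count in 738 recomputed values and moved further in 68. Genes at or under the floor of 0.0984 to 0.298 TPM in experiment 1 cannot be ordered.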
